A study of Mus musculus with 9 samples.

Results

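The striated muscle myosins form the thick filaments of the heart, and 10 genes that encode their chains or act beside them were followed in neonatal mouse ventricles with and without Arid1a in cardiomyocytes. They were chosen by name, with earlier results of these data known. They comprise the cardiac heavy chains Myh6, Myh7 and Myh7b and the light chains Myl1, Myl2, Myl3, Myl4 and Myl7. The cardiac light chain kinase Mylk3 and the nonmuscle heavy chain Myh14 complete them. All 10 were among the 38293 genes of the count table, and all 10 were among the 15318 genes with enough reads to test.

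RNA was taken from ventricles at postnatal day 7 (P7) and sequenced after poly(A) selection. The 5 control libraries came from Arid1a f/f littermates that bear both floxed alleles but no Cre, and the 4 knockout libraries came from αMHC-Cre;Arid1a f/f pups (cKO), so that both groups carry the floxed alleles and only the cKO group carries the transgene. Arid1a encodes a subunit of SWI/SNF, which remodels chromatin, and the αMHC promoter that drives Cre is active in cardiomyocytes and is itself the promoter of Myh6. Because the controls lack Cre, an effect of the transgene and an effect of losing Arid1a cannot be told apart. The study counts the libraries of each group as hearts and as biological replicates, and the labels number them without naming animals.

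A thick filament is a bundle of myosin molecules, each a pair of heavy chains with an essential and a regulatory light chain bound at each head. The heart swaps these chains as it develops: the rodent ventricle turns from the slow β heavy chain (Myh7) of the fetus to the fast α heavy chain (Myh6) around birth, whereas the regulatory chains Myl2 and Myl7 and the essential chains Myl3 and Myl4 divide between ventricle and atrium. Phosphorylation of the regulatory chain by Mylk3 tunes the force of contraction. A return of fetal or atrial chains in the ventricle is a widely used sign of an immature or stressed heart.

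The 3 cardiac heavy chain genes each hold a microRNA in an intron on their own strand, and these are printed because they carry the family's shared sequence. Poly(A)-selected libraries are not made to capture mature microRNAs. The microRNA genes are in the count table, with 45 to 98 reads per library for Mir208a, 0 to 2 for Mir208b and 0 to 4 for Mir499, and these reads cannot be told from those of unspliced host transcripts. Sequences are from RefSeq on GRCm38.p6, 5′ to 3′, with the seed (bases 2 to 8) in capitals. The seed of mmu-miR-499-5p shares 6 of 7 bases with that of the other two, which are the same. Their positions are chr14:54949072-54949093 on the minus strand within Myh6, chr14:54975710-54975731 on the minus strand within Myh7, and chr2:155622893-155622913 on the plus strand within Myh7b.
mmu-miR-208a-3p: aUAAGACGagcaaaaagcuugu
mmu-miR-208b-3p: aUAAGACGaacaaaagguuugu
mmu-miR-499-5p: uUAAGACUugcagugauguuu

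Libraries held 31011055 to 36616381 counts in controls and 31557840 to 40073801 in cKO, and the 10 genes together took 3.05% to 3.63% of the counts in controls and 2.72% to 3.30% in cKO. The fewest reads of any of the 10 in a library were 113, for Myl1. Arid1a itself averaged 139.8 ± 8.84 CPM over the controls (SD, n = 5) against 106.4 ± 5.44 CPM over the cKO libraries (SD, n = 4). This was a log2 fold change of -0.39 (adjusted p = 0.00132 by edgeR). CPM is the number of counts per 1e6 counts of the library total, scaled by TMM. The libraries also divide into a pair of sets by Rps3a3, a ribosomal protein gene copy. Control replicates 1 and 2 and cKO replicates 1 to 3 lay at 0.345 to 0.521 CPM (the Rps3a3-low set), whereas control replicates 3 to 5 and cKO replicate 4 lay at 99.7 to 112.3 CPM (the Rps3a3-high set). Rps3a1 ran the other way, at 253.1 to 275.6 CPM in the Rps3a3-low set and 70.8 to 75.7 CPM in the Rps3a3-high set. The cause of this division was not tested. The labels do not name a batch, so differences of mean log2 CPM within each set are given beside the results of the 10 genes. Xist was high in 2 controls and 2 cKO libraries, so that both groups held both sexes. The Rps3a3-high set has a single cKO library and allows no test of its own. In the Rps3a3-low libraries alone the change of Arid1a was -0.33 and did not pass (adjusted p = 0.0822 by edgeR).

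Between cKO and control ventricles, 5 of the 10 genes passed an adjusted p of 0.05 in edgeR's quasi-likelihood test, 2 of them higher in cKO (Myl1 and Myl7) and 3 lower (Myl2, Mylk3 and Myh7b). Of all 15318 genes tested, 16.3% passed, 8.25% higher and 8.03% lower. With a fold change over 1.5 required as well, 2 of the 10 were called, Myl1 and Myl7, where 6.72% of all genes were called and 4.01% were called higher. The groups did not overlap for 3 of the 10 (Myl7, Myl2 and Mylk3), against 16.7% of all genes. The median log2 fold change of the 10 was -0.13, and that of all genes tested was 0.01.

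**Figure D1:**
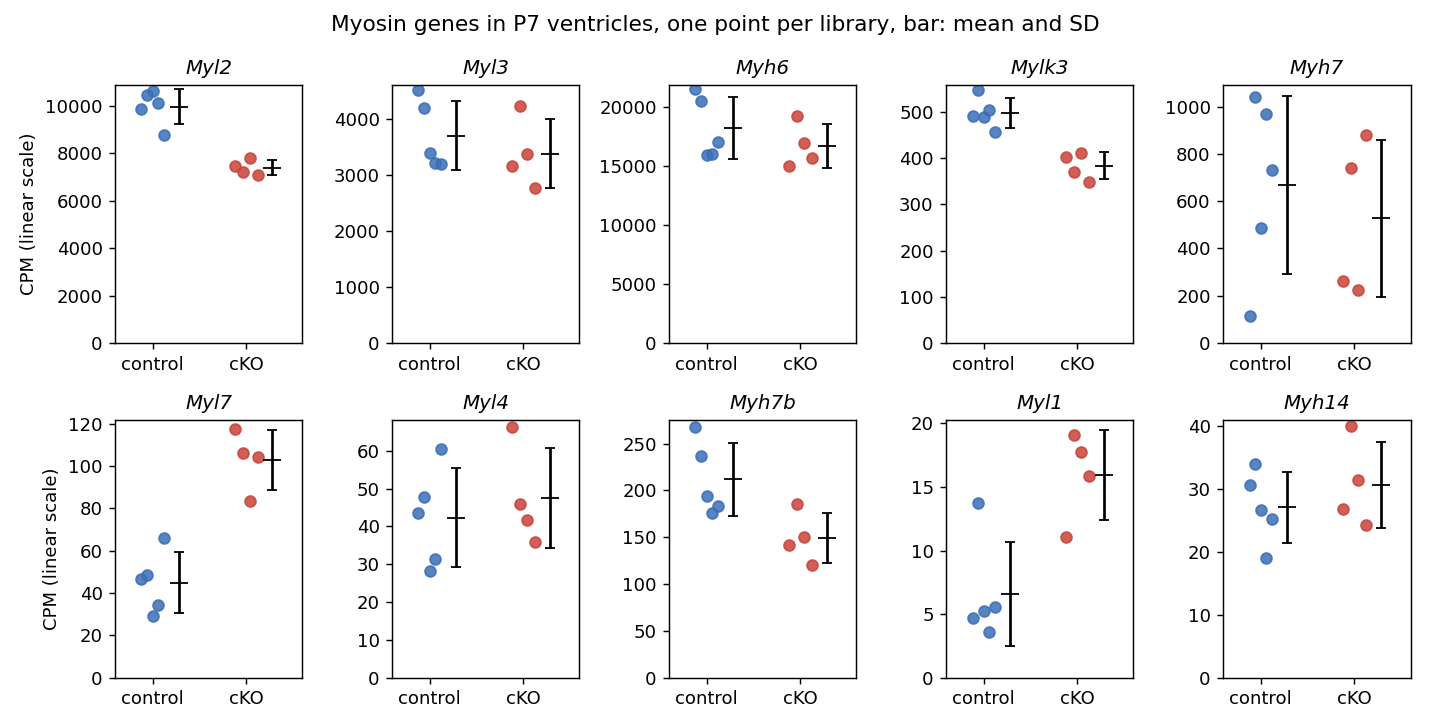
Level of each of the 10 myosin genes in CPM on a linear axis from 0, one point per library, for 5 control (blue) and 4 cKO (red) libraries, with the mean and SD as a bar. The cKO points for Myl7 lie at 83.6 to 117.4 CPM and all control points at 29.1 to 65.9 CPM, those for Myl2 and Mylk3 lie wholly below the controls, and the points for Myh7 spread widely in both groups, from 115.8 to 1040 CPM in controls and from 225.4 to 881.2 CPM in cKO.

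Levels were compared between genes per kilobase of the longest coding transcript, as CPM per kb. In controls the order was Myl2 (11222 ± 823 CPM per kb, SD, n = 5), Myl3 (3950 ± 653), Myh6 (2979 ± 430), Mylk3 (134.8 ± 8.95), Myh7 (107.3 ± 60.6), Myl7 (76.0 ± 24.3), Myl4 (44.9 ± 13.9), Myh7b (34.4 ± 6.38), Myl1 (6.06 ± 3.78) and Myh14 (4.17 ± 0.866). The order thus falls into 3 ventricular chains that each exceeded the other 7 genes in every control, a middle group, and Myl1 and Myh14 at the bottom. The control ranges of neighbours were separate for Myl2 and Myl3, for Myh6 and Mylk3, and for Myh7b and Myl1, and the other neighbours overlapped. Myh7 stood above Myl7 in 4 of 5 controls and in 0 of 4 cKO libraries.

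Among the heavy chains, Myh6, the α heavy chain and the chief motor of the adult mouse ventricle (ENSMUSG00000040752, GRCm38 chromosome 14, 54941921 to 54966927), was at 21517, 20526, 15925, 16042 and 17047 CPM across the 5 controls, in replicate order. It was at 15003, 19193, 16968 and 15641 CPM across the 4 cKO libraries. The groups overlapped, and the mean was 18211 ± 2626 CPM in controls and 16701 ± 1852 CPM in cKO. The log2 fold change was -0.12 (SE 0.11, 95% interval -0.36 to 0.11, adjusted p = 0.478 by edgeR), and the difference was -0.31 among the Rps3a3-low libraries and -0.06 among the Rps3a3-high ones.

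Myh7, the slow β heavy chain of the fetal ventricle (ENSMUSG00000053093, chromosome 14, 54970684 to 54994626), varied widely between libraries. It was at 115.8, 1040, 486.2, 967.3 and 732.0 CPM across the 5 controls, in replicate order, against 260.6, 742.4, 225.4 and 881.2 CPM across the 4 cKO libraries. The highest and lowest controls differed 8.98-fold, and the highest and lowest cKO libraries 3.91-fold, so that low and high libraries occurred in both groups. The fitted log2 fold change was -0.34 (edgeR adjusted p = 0.788, SE 0.70), and its 95% interval of -1.98 to 1.29 includes a fall of more than 3-fold and a rise of more than 2-fold. The differences of mean log2 CPM among Rps3a3-low libraries and among Rps3a3-high ones had the other sign, at 0.02 and 0.33, whereas the fitted change stayed negative in 20 of 20 alternatives (DESeq2 in 1 and edgeR in the others), at -0.49 with the Rps3a3-low libraries alone and -0.19 with the library set as a term. A change of Myh7 was therefore not detectable against this spread.

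Some reads cannot separate the α and β chains. Of all 75-base windows, the length of a read, 15.5% of the Myh6 transcript and 15.3% of the Myh7 transcript were found in the other, and reads from these windows may have been left out or assigned to either. Mhrt, a long noncoding RNA antisense to Myh7 whose exons overlap those of Myh7, was at 35.5 ± 9.12 CPM in controls and 41.2 ± 10.2 CPM in cKO, with a log2 fold change of 0.21 (edgeR adjusted p = 0.564, SE 0.22). The strand setting of the counting is not given in the sources used here, and reads of Myh7 and Mhrt could be mixed.

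Myh7b, an ancient slow heavy chain that contributes little protein to the mammalian heart (ENSMUSG00000074652, chromosome 2, 155611212 to 155634307), was lower in cKO. It was at 268.2, 236.9, 194.5, 176.4 and 183.3 CPM across the 5 controls, in replicate order, against 141.3, 185.2, 150.5 and 120.1 CPM across the 4 cKO libraries. Only cKO replicate 2 reached into the control range. The fitted log2 fold change was -0.51 (edgeR adjusted p = 0.0401, SE 0.15), with differences of -0.67 and -0.62 among Rps3a3-low and Rps3a3-high libraries. The adjusted p rose to between 0.0553 and 0.1001 without any one of control replicates 1, 2 and 3 or cKO replicates 1, 3 and 4, and it was 0.0724 with no filter on low counts and 0.0535 with Xist as a covariate. The change was larger and passed, with a fold over 1.5, when the model held a library set term (-0.65, edgeR adjusted p = 0.000239) and in the Rps3a3-low libraries alone (-0.67, adjusted p = 0.0255). The sign held in 20 of 20 alternatives. Exons of Trpc4ap overlap those of Myh7b on the opposite strand, with 3629 to 4846 reads per library assigned to Trpc4ap and 4543 to 8914 to Myh7b.

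The regulatory light chains moved in opposite directions. Myl2, the ventricular regulatory chain (ENSMUSG00000013936, chromosome 5, 122100951 to 122113472), was at 9886, 10477, 10629, 10115 and 8776 CPM across the 5 controls, in replicate order, against 7470, 7224, 7802 and 7084 CPM across the 4 cKO libraries. Every cKO library was below every control, and the spread within a group was small. This was a log2 fold change of -0.43 (edgeR adjusted p = 0.00124, SE 0.07), a decrease to 0.741 of the control level, with differences of -0.44 and -0.47 among Rps3a3-low and Rps3a3-high libraries, and it passed in 20 of 20 alternatives. In ventricular tissue, fewer cardiomyocytes and less RNA per cardiomyocyte cannot be told apart. The summed level of the 7 ventricular cardiomyocyte markers, of which Myl2 is one, was 32043 to 34384 CPM in controls and 27669 to 29175 CPM in cKO, and the part of cell number in the fall of Myl2 was not tested. Of these 7 markers, 1 (Myl2) passed.

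Myl7, the atrial regulatory chain, which the early embryonic ventricle also expresses (ENSMUSG00000020469, chromosome 11, 5896637 to 5898782), rose in cKO ventricles. It was at 46.6, 48.6, 29.1, 34.1 and 65.9 CPM across the 5 controls, in replicate order, against 117.4, 106.1, 83.6 and 104.0 CPM across the 4 cKO libraries. The lowest cKO library was above the highest control. The mean rose from 44.8 ± 14.3 to 102.8 ± 14.1 CPM, a fold of 2.29 (log2 fold change 1.20, SE 0.22, 95% interval 0.71 to 1.68, adjusted p = 0.00493 by edgeR). The difference was 1.08 among the Rps3a3-low libraries and 1.36 among the Rps3a3-high ones, and it passed in 20 of 20 alternatives, with adjusted p up to 0.0236.

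The sequence just upstream of Myl7 is printed together with those of Myl3, its counterpart with the same pair of motifs, Myl1, the other gene that was called, and Myh7b, the one heavy chain among the 10 that passed. The first motif is M-CAT, spelled CATTCC, a site of TEAD factors, the DNA-binding partners of YAP, and another is the CArG box, the site of serum response factor, a regulator of muscle genes. Also searched was the half-site AAGGTCA of estrogen-related receptors, which act on genes of the maturing heart. Each motif was searched on both strands in a window of 300 bases, from 250 before to 50 after each RefSeq start, and the motifs do not overlap in these sequences. A gene with several RefSeq starts has several such windows, and the 10 genes have 13. M-CAT was found in 14.7% of the 32851 promoters and in 6 of these 13, or, counting a gene with a match at any start, at 16.6% of 27025 genes and at 6 of the 10 (Myh6, Myh7, Myl1, Myl3, Myl7 and Mylk3). The CArG box was found in 1.63% of the promoters and 2 of the 13 (Myl3 and Myl7), and the estrogen-related receptor half-site in 4.72% and 1 of the 13 (Myh7b). The MEF2 consensus was found in 3.19% of the promoters and 0 of the 13.

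Each sequence gives the 250 bases before the RefSeq start on GRCm38.p6, read along the gene's strand, with motif matches in capitals. They lie at chr11:5898783-5899032 (minus strand, Myl7), chr9:110763428-110763677 (plus strand, Myl3), chr1:66945057-66945306 (minus strand, Myl1) and chr2:155610993-155611242 (plus strand, Myh7b). In Myl7 the M-CAT match begins 70 bases and the CArG box 61 bases before the start. In Myl3 M-CAT matches begin 177 and 149 bases and the CArG box 85 bases before it. The M-CAT match of Myl1 begins 80 bases before its start, and the half-site of Myh7b 46 bases before its start. Matches describe the letters and do not show binding.
Myl7: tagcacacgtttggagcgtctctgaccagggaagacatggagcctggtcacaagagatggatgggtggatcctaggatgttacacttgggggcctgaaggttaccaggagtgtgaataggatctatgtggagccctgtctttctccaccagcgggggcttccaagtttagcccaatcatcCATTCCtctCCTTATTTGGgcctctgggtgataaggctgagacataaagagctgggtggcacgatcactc
Myl3: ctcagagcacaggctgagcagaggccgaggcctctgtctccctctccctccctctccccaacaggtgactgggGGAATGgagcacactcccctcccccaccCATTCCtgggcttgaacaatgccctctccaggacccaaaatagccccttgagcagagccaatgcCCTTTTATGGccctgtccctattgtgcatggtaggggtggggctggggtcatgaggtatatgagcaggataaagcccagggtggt
Myl1: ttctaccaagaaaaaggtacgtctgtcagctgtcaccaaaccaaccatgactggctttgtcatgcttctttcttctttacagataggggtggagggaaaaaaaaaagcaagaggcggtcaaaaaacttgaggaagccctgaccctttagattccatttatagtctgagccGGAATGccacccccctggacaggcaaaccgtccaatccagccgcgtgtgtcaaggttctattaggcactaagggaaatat
Myh7b: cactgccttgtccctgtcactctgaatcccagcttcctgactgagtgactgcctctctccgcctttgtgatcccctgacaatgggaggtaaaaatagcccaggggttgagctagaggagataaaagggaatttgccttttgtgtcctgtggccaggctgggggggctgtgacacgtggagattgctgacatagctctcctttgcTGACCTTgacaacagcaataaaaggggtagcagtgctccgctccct

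Myl3, the ventricular essential light chain (ENSMUSG00000059741, chromosome 9, 110741861 to 110769798), did not pass. It was at 4519, 4190, 3388, 3211 and 3197 CPM across the 5 controls, in replicate order, against 3155, 4224, 3375 and 2765 CPM across the 4 cKO libraries. The groups overlapped. The log2 fold change was -0.13 (SE 0.14, 95% interval -0.43 to 0.17, adjusted p = 0.570 by edgeR). The difference was -0.29 among the Rps3a3-low libraries and -0.24 among the Rps3a3-high ones. With the library set as a term in the model the change was -0.27 and passed (adjusted p = 0.0463), the only one of 20 alternatives in which it did.

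Myl4, the atrial and fetal essential light chain (ENSMUSG00000061086, chromosome 11, 104550663 to 104595753), did not pass either. It was at 43.6, 47.9, 28.3, 31.3 and 60.6 CPM across the 5 controls, in replicate order, against 66.3, 46.0, 41.7 and 35.8 CPM across the 4 cKO libraries. The groups lay over each other, with the log2 fold change at 0.16 (SE 0.25, 95% interval -0.40 to 0.73, adjusted p = 0.710 by edgeR) and at -0.040 without cKO replicate 1. Its sign also differed between the library sets, with 0.14 among the Rps3a3-low libraries and -0.074 among the Rps3a3-high ones. The highest cKO library, replicate 1, was also the highest of that group for Myl7.

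Myl1, an essential chain best known from fast skeletal muscle that the embryonic heart also expresses (ENSMUSG00000061816, chromosome 1, 66924295 to 66945404), was the other gene called. It was low throughout, at 4.69, 13.8, 5.21, 3.55 and 5.59 CPM across the 5 controls, in replicate order, against 11.1, 19.1, 17.8 and 15.8 CPM across the 4 cKO libraries. Control replicate 2 stood apart from the other controls and above cKO replicate 1, the sole overlap. The log2 fold change was 1.28 (SE 0.38, 95% interval 0.43 to 2.13, adjusted p = 0.0484 by edgeR). It was 1.74 without control replicate 2 (adjusted p = 0.00015), and it passed without cKO replicate 1 (adjusted p = 0.0487), but the adjusted p lay between 0.0818 and 0.133 without any other single library, that is, any of control replicates 1, 3, 4 and 5 and cKO replicates 2, 3 and 4. Among Rps3a3-low and Rps3a3-high libraries the difference was 0.90 and 1.65, and the Rps3a3-low libraries alone gave 0.80 (adjusted p = 0.478). Nor did it pass with no filter on low counts (edgeR adjusted p = 0.112), with a library set term (0.0581) or after removal of trends with GC content and length (0.0537). Of the 75-base windows of the Myl1 transcript, 16.6% were shared with the pseudogene Mylf-ps. The 10 skeletal muscle markers, of which 4 could be tested and 0 passed, summed to 2.89 to 5.54 CPM in controls and 6.44 to 7.87 CPM in cKO. The median log2 fold change of these 4 was 0.69, and the groups did not overlap for 2 of them. Their part in the level of Myl1 was not tested.

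Mylk3, the cardiac kinase that phosphorylates Myl2 (ENSMUSG00000031698, chromosome 8, 85324303 to 85386345), fell together with Myl2. It was at 492.1, 548.6, 488.4, 504.6 and 457.5 CPM across the 5 controls, in replicate order, against 402.4, 369.4, 411.8 and 349.0 CPM across the 4 cKO libraries. Every cKO library was below every control. The log2 fold change was -0.38 (SE 0.07, 95% interval -0.53 to -0.22, adjusted p = 0.00345 by edgeR), and differences of -0.40 and -0.47 were measured among Rps3a3-low and Rps3a3-high libraries. It passed in 20 of 20 alternatives.

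Myh14, the heavy chain of nonmuscle myosin IIC (ENSMUSG00000030739, chromosome 7, 44605803 to 44670843), ranged from 19.1 to 34.0 CPM over the controls and from 24.4 to 40.03 CPM over the cKO libraries. The groups overlapped, and the log2 fold change was 0.18 (SE 0.18, 95% interval -0.21 to 0.56, adjusted p = 0.540 by edgeR), with differences of 0.0067 and 0.054 among Rps3a3-low and Rps3a3-high libraries.

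**Figure D2:**
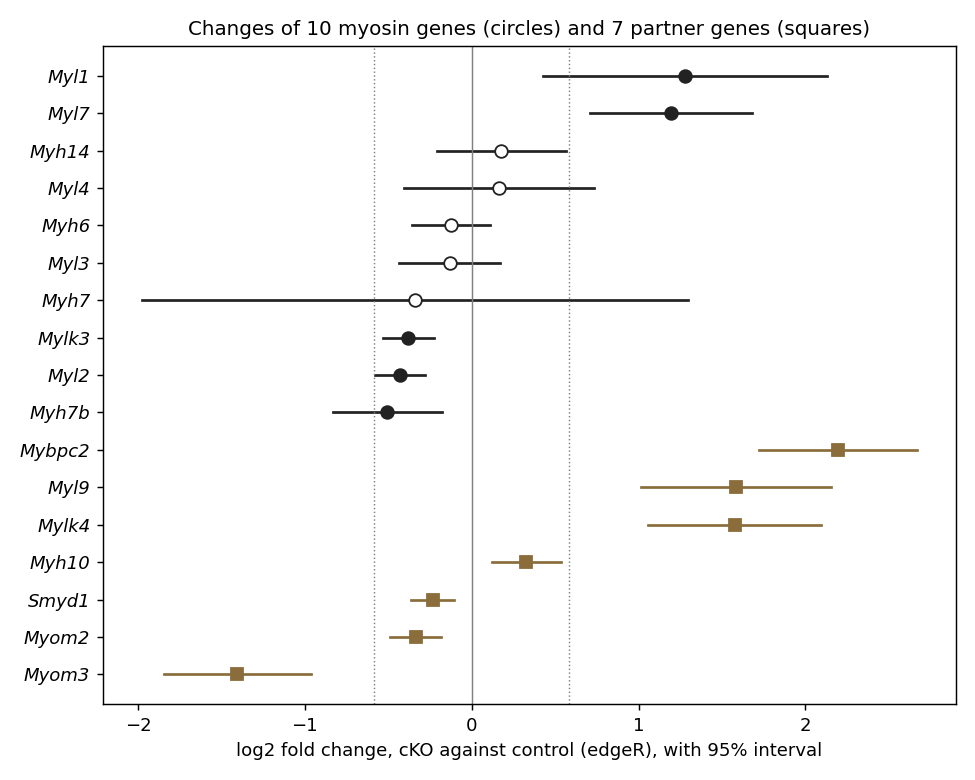
Log2 fold change of cKO against control by edgeR with its 95% interval for the 10 myosin genes (circles, filled where the adjusted p was under 0.05) and 7 partner genes that passed (squares). Dotted lines mark a 1.5-fold change. Myl1 (1.28) and Myl7 (1.20) stand past the line on the right with intervals of unequal width, and the interval of Myh7 (-1.98 to 1.29) is the widest.

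Ratios of fetal or atrial to adult ventricular chains were formed within each library, where the scaling of libraries cancels, and 4 such ratios were compared by two-sided exact permutation of the group labels (smallest possible p 0.00794). The p-values were adjusted over the 4 ratios. Shares are given per transcript length, as the numerator in percent of the denominator.

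The Myl7 to Myl2 ratio was 0.711%, 0.699%, 0.412%, 0.508% and 1.13% across the 5 controls, in replicate order, against 2.37%, 2.21%, 1.61% and 2.21% across the 4 cKO libraries. The groups did not overlap, yet in every cKO library the atrial chain remained a small fraction of the ventricular one. The mean rose from 0.692% ± 0.276 (SD, n = 5) to 2.10% ± 0.333 (SD, n = 4), 3.19-fold between geometric means (log2 difference 1.67, exact permutation p = 0.0159, adjusted p = 0.0317). The log2 difference was 1.53 among the Rps3a3-low libraries and 1.84 among the Rps3a3-high ones. With labels permuted within the library sets it was 1.65 and did not pass (adjusted exact permutation p = 0.05, smallest possible p 0.025). Adjusted exact permutation p-values lay at 0.0571 without any one control library and at 0.0714 without any one of cKO replicates 2, 3 and 4, with the difference between 1.51 and 1.87, and it passed without cKO replicate 1 (adjusted p = 0.0357).

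The Myl1 to Myl3 ratio also rose. It was 0.0900%, 0.284%, 0.133%, 0.0959% and 0.152% across the 5 controls, in replicate order, against 0.304%, 0.391%, 0.456% and 0.496% across the 4 cKO libraries. In this ratio control replicate 2 no longer overlapped with the cKO group, and the gap between 0.284% and 0.304% was narrow. The log2 difference was 1.55 (exact permutation p = 0.0159, adjusted p = 0.0317), 2.94-fold between geometric means, with 1.24 and 1.99 among Rps3a3-low and Rps3a3-high libraries. With labels permuted within the library sets the log2 difference was 1.53 and did not pass (adjusted exact permutation p = 0.05). Like the Myl7 to Myl2 ratio, it passed without cKO replicate 1 (1.69). With any other library left out it lay between 1.40 and 1.81, with adjusted exact permutation p-values of 0.0571 to 0.0714.

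The other 2 ratios overlapped between the groups. The Myl4 to Myl3 ratio was 1.16% ± 0.421 in controls and 1.42% ± 0.454 in cKO, with a log2 difference of 0.32 (exact permutation p = 0.333, adjusted p = 0.444). The Myh7 to Myh6 ratio was 3.72% ± 2.08 in controls and 3.08% ± 1.96 in cKO, with a log2 difference of -0.14 (exact permutation p = 0.889, adjusted p = 0.889). Its sign was not stable: it was 0.33 among the Rps3a3-low libraries and 0.39 among the Rps3a3-high ones. Control replicate 1, at 0.528%, lay far below the other controls, which ran from 2.996% to 5.92%, and without it the difference was -0.75 (adjusted exact permutation p = 0.343).

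**Figure D3:**
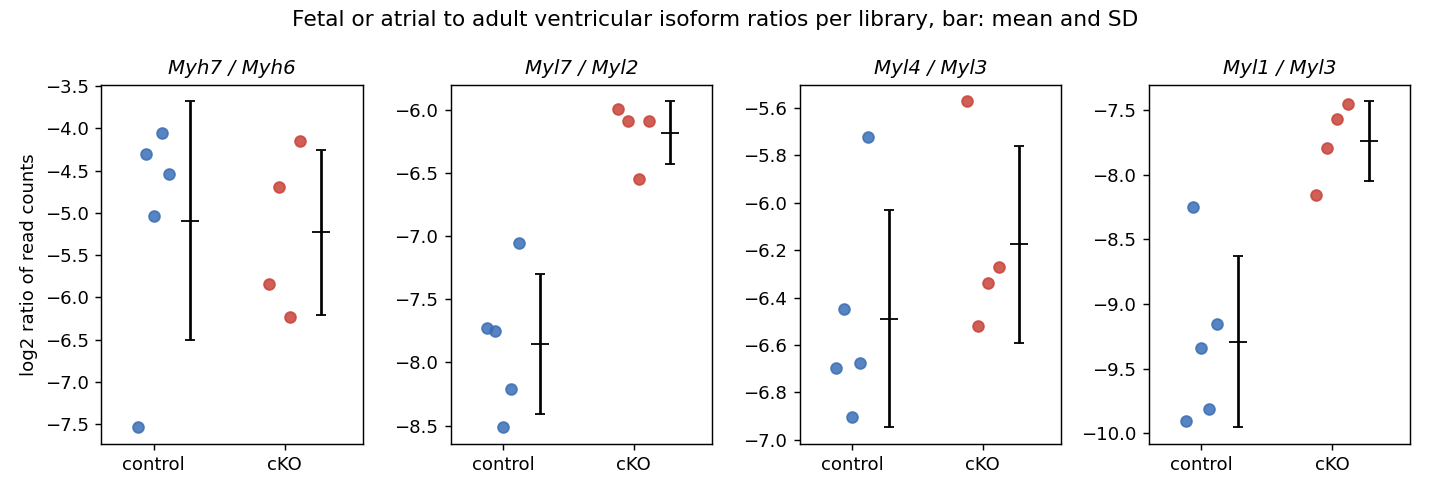
Log2 ratio of read counts, fetal or atrial chain over adult ventricular chain, one point per library for 5 control (blue) and 4 cKO (red) libraries, with the mean and SD as a bar; each panel has its own axis. The groups separate for Myl7 over Myl2 and for Myl1 over Myl3 and overlap for the other ratios, and in Myh7 over Myh6 control replicate 1 lies at -7.54.

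The atrial chains were set beside other atrial genes, a comparison chosen after the values were seen, and its ratios were not tested. In controls Myl7 and Myl4 had nearly equal numbers of reads, with Myl7 to Myl4 ratios of 1.07, 1.01, 1.03, 1.09 and 1.09 in replicates 1 to 5. In cKO replicates 1 to 4 the ratios were 1.77, 2.30, 2.01 and 2.90. The near equality held although the level of both chains varied more than 2-fold among the controls. Sln, the atrial calcium pump inhibitor sarcolipin, was at 4.15, 7.12, 3.16, 3.40 and 10.8 CPM across the 5 controls, in replicate order, against 6.28, 1.33, 1.30 and 0.823 CPM across the 4 cKO libraries. The 5 controls ran in the same order for Sln as for Myl4. Neither Sln (log2 fold change -1.25, SE 0.67, adjusted p = 0.262 by edgeR) nor Mybphl, an atrial myosin binding protein (-1.27, SE 0.61, adjusted p = 0.196), passed with all libraries. In both, cKO replicate 1 lay apart from the rest of its group, as it held 6.28 CPM of Sln and 4.11 CPM of Mybphl where the other cKO libraries held at most 1.33 and 0.927 CPM. Without that library, which was singled out by these same values, the change was -2.31 for Sln and -2.35 for Mybphl. Both then passed (adjusted p = 0.0083 and 0.00182 by edgeR), the only 1 of 20 alternatives in which either did. The Myl4 to Sln ratio of reads was 5.62 to 10.5 in controls and 10.6, 34.7, 32.0 and 43.5 in cKO, and the Myl7 to Sln ratio was 6.12 to 11.2 in controls and 18.7 to 126.3 in cKO. The Mybphl to Sln ratio was 0.550 to 0.741 in controls and 0.540 to 0.711 in cKO, and these ranges overlapped, whereas those of the light chains to Sln did not.

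**Figure D4:**
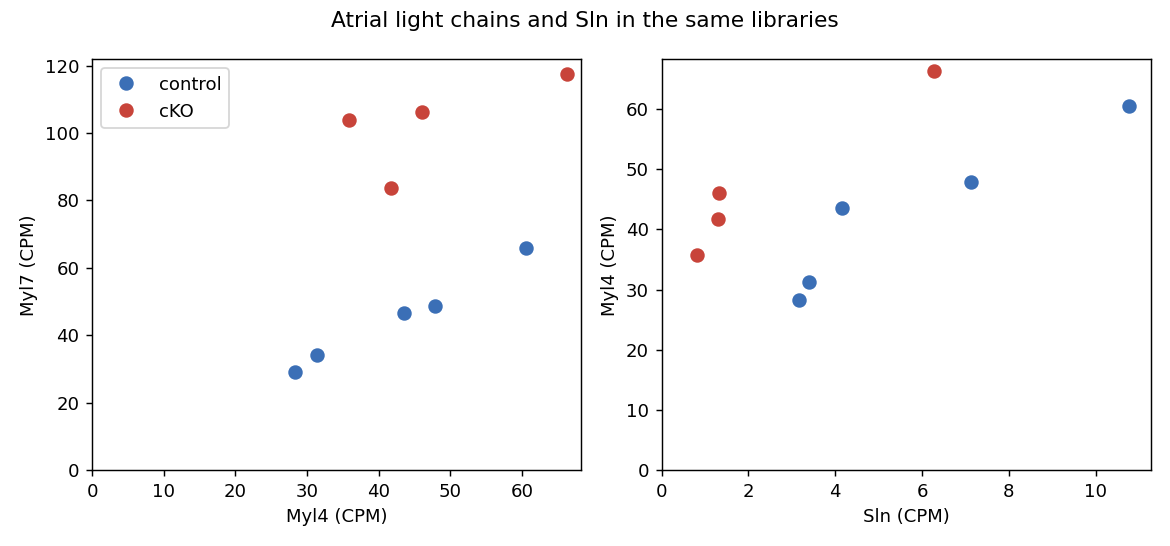
Myl7 against Myl4 (left) and Myl4 against Sln (right), in CPM on linear axes from 0, one point per library for 5 control (blue) and 4 cKO (red) libraries. On the left the controls lie along a line with ratios of 1.01 to 1.09 and the cKO libraries lie above it. On the right 3 cKO libraries lie between 0.823 and 1.33 CPM of Sln, with Myl4 within the control range.

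The 9 atrial markers as a whole did not move together. Of the 8 that could be tested, 2 rose (Nppa, the atrial natriuretic peptide, and Dkk3) and 3 fell (Kcnj3 and Kcnj5, which encode an acetylcholine-activated potassium channel of atrial cells, and Stard10). The marker with too few reads to test, Bmp10, was at 0 to 0.194 CPM in controls and at 0 in every cKO library. The sum of the 9 was 330.8 to 371.9 CPM in controls and 906.0 to 2583 CPM in cKO. Nppa alone was at 101.5 to 123.2 CPM in controls and 710.9 to 2432 CPM in cKO. Kcnj3 fell from 28.4 ± 3.86 to 1.68 ± 1.39 CPM (log2 fold change -4.10, SE 0.44, adjusted p = 0.000404 by edgeR), and without cKO replicate 1, which held 3.76 CPM where the other cKO libraries held 0.822 to 1.13 CPM, the change was -4.84. Dkk3 passed in 2 of 9 fits that left out a library, those without control replicate 1 or 5. In the Rps3a3-low libraries alone Kcnj5 was at -0.29 (edgeR adjusted p = 0.164, against -0.48 and 0.00436 in all libraries), Nppa at 3.70 (adjusted p = 0.0625, against 3.92 and 0.000121) and Dkk3 at 0.33 (adjusted p = 0.119), and none of these passed there. The part of atrial tissue in the level of Myl7 was not tested.

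Of the other genes of the myosin system, the kinases and phosphatase subunits that act on light chains numbered 9, all tested, and 1 passed: Mylk4, a muscle kinase of the light chain kinase family, rose from 38.9 ± 12.8 to 116.1 ± 26.8 CPM (log2 fold change 1.58, SE 0.23, adjusted p = 0.0017 by edgeR). Mylk4 thus moved up while Mylk3 moved down, and per library it lay at 30.4 to 61.3 CPM in controls and 88.6 to 151.6 CPM in cKO. Of the other light chains, 7 of 8 listed were in the table and 6 were tested. Among these Myl9, the regulatory chain of smooth muscle and nonmuscle myosin, rose from 284.2 ± 71.9 to 852.2 ± 265.1 CPM (1.58, SE 0.25, adjusted p = 0.00317). In the Rps3a3-low libraries alone the changes of Mylk4 and Myl9 were 1.43 and 1.27 and did not pass (adjusted p = 0.0775 and 0.162 by edgeR).

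Myl9 was read beside the smooth muscle and mural markers, whose sum did not separate the groups, at 1772 to 1963 CPM in controls and 1693 to 2021 CPM in cKO. Of these 7 markers 2 passed. Cnn1, the smooth muscle calponin, rose (log2 fold change 2.78, SE 0.22, adjusted p = 1.15e-05 by edgeR), whereas Smtn, smoothelin, fell (-0.56, SE 0.16, adjusted p = 0.0414), the latter in 2 of 9 fits that left out a library (without control replicate 4 or cKO replicate 2) and in the Rps3a3-low libraries alone (-0.74, adjusted p = 0.0204), but not with no filter on low counts (0.0897) or with Xist as a covariate (0.0596). Myh11, the defining smooth muscle heavy chain, was at 63.7 ± 9.01 CPM in controls and 51.8 ± 9.02 CPM in cKO (-0.30, SE 0.13, adjusted p = 0.139), and it passed once the model held a library set term (-0.42, adjusted p = 0.00746). The part of smooth muscle cells in the rise of Myl9 was not tested.

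The thick filament partners, which bind or cross-link myosin, numbered 9, of which 7 were tested, 1 rose and 2 fell. Mybpc2, the fast skeletal myosin binding protein C, rose from 29.4 ± 8.81 to 134.6 ± 17.8 CPM (log2 fold change 2.19, SE 0.21, adjusted p = 0.00012 by edgeR), whereas the cardiac form Mybpc3 was at 3998 ± 437 CPM in controls and 4100 ± 371 CPM in cKO (0.04, SE 0.09, adjusted p = 0.825). The M-band proteins Myom2 and Myom3 fell. Myom2 was at 1409 ± 39.7 CPM in controls and 1116 ± 111 CPM in cKO (-0.34, SE 0.07, adjusted p = 0.00679), and Myom3 at 2.46 ± 0.307 and 0.927 ± 0.202 CPM (-1.40, SE 0.20, adjusted p = 0.000608). In the Rps3a3-low libraries alone Mybpc2 and Myom2 did not pass (2.17 and -0.41, adjusted p = 0.0667 and 0.0530 by edgeR).

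Of 5 myosin chaperones, all tested, 1 fell: Smyd1, a muscle methyltransferase needed for myosin assembly, was at 627.9 ± 36.8 CPM in controls and 533.9 ± 16.1 CPM in cKO (log2 fold change -0.23, SE 0.06, adjusted p = 0.0194 by edgeR). Without cKO replicate 2 or 4 the adjusted p was 0.0502 and 0.0512, and in the Rps3a3-low libraries alone the change was -0.17 (adjusted p = 0.294). All 3 heavy chains of smooth muscle and nonmuscle myosin were tested, and Myh10, nonmuscle myosin IIB, rose by 0.33 (adjusted p = 0.0357, SE 0.09) with overlapping groups. It did not pass without control replicate 2, 3 or 4 or cKO replicate 2 or 4 (adjusted p between 0.0563 and 0.110 by edgeR), nor in the Rps3a3-low libraries alone (0.34, adjusted p = 0.182). Of 7 other sarcomeric heavy chains, among them the embryonic and fast skeletal forms, 1 had enough reads to test and 0 passed: Myh8, the perinatal chain, was at 0.749 ± 0.225 CPM in controls and 0.342 ± 0.210 CPM in cKO (log2 fold change -1.09, SE 0.41, adjusted p = 0.0943), and it passed without cKO replicate 4 (-1.53, adjusted p = 0.0381). Myh15 had no read in any library.

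Markers of the remaining cell types were read as a check of the tissue. The 5 fibroblast markers summed to 3851 to 4431 CPM in controls and 5160 to 5501 CPM in cKO, and 3 of them (Col1a1, Col1a2 and Postn) rose, by 0.52, 0.40 and 0.33 on the log2 scale (edgeR adjusted p = 0.0346, 0.00574 and 0.0211). Col1a1 did not pass without control replicate 3 or 5 or cKO replicate 1, 2 or 3 (adjusted p between 0.0529 and 0.0946), nor in the Rps3a3-low libraries alone (0.36, adjusted p = 0.230) or with no filter on low counts (adjusted p = 0.0760). Postn did not pass without control replicate 2 or cKO replicate 4 (0.0502 and 0.0601). Of the 4 endothelial markers 0 passed, with sums of 1208 to 1323 CPM in controls and 1191 to 1286 CPM in cKO. The 5 epithelial markers summed to at most 0.744 CPM and could not be tested. The part of these cells in the levels of the myosin genes was not tested.

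Genes whose levels followed 4 of the chains most closely over the 9 libraries were named by Pearson's r of log2 CPM, as a description, since the points share their libraries and their groups. For Myl2 these were Uqcrfs1, Slc25a3 and Atp5b (each with r = 0.99), which encode a respiratory chain subunit, the mitochondrial phosphate carrier and a subunit of ATP synthase. They were lower in cKO too, with log2 fold changes of -0.23 (edgeR adjusted p = 0.0121, SE 0.05), -0.23 (adjusted p = 0.0136, SE 0.05) and -0.31 (adjusted p = 0.003, SE 0.06). For Myl7 they were Hspa1l (r = 0.98), a heat shock protein, Bcr (0.96) and Ccdc86 (0.95), all of which rose in cKO. For Myl4 they were Trim63 (0.91), a ubiquitin ligase of the sarcomere, Irak4 (0.90) and the L-type calcium channel gene Cacna1c (0.87), none of which passed. For Myh7 they were Bbs7 (0.95), Gm10704 (0.95) and 4930480K23Rik (0.87). None of these passed, with Gm10704 running from 0.361 to 13.7 CPM in controls and from 0.521 to 9.49 CPM in cKO.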

How the data were processed

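RNA of P7 ventricles was measured in 5 control and 4 cKO libraries, grouped by their labels. The authors prepared stranded mRNA libraries, read 75 bases from a single end and mapped to mm10. The submitters' processing notes name STAR 2.4.2a and HTSeq 0.6.1. The values deposited by the authors are raw counts per gene, not normalized. The strand setting and annotation of the counting are not given in the sources used here. The number of controls is not the same throughout the study's text, and every library with a control label (5) entered. Methods-stated thresholds were kept, while edgeR replaced the study's DESeq2 as the main test.

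Symbols came from GENCODE M21 (36345 of 38293 identifiers found, with 99.82% of the counts). In R 4.3.3, genes kept by filterByExpr (minimum count 10) were scaled by TMM and tested in edgeR 4.0.16 (glmQLFTest, the quasi-likelihood test, robust) with genotype alone, and Benjamini-Hochberg adjustment over all 15318 genes. Ratios took 0.5 counts as pseudocount and exact permutation in scipy 1.17.1. The steps were tested on simulated data. Total counts ran from 31011055 to 40073801, so that counting error was small beside the spread between libraries for all 10 genes.

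The genes, 6 lists of further myosin genes, 7 marker lists and the motifs were chosen with earlier results of these data known. Of each list of further genes, those with an adjusted p under 0.05 were named, at most 3 by size of change, and of similar patterns the 3 genes with the highest r and a mean of at least 5 CPM. Other genes named, among them Sln, Mybphl, Bmp10, Myh8, Myh11, Mybpc3 and the markers, were picked with their values known. DESeq2 1.42.0 (Wald test) was run as an alternative, as were other scalings and filters, the replicate number as a block, the library set or Xist as a term, removal of trends with GC content and gene length, the Rps3a3-low libraries alone, and leaving out each library.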

Additional observations from a re-analysis of the deposited data

Results flagged for a closer look

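A library that stood apart from the rest of its group was looked for in 28 groups of values (the 10 genes and 4 ratios, in controls and in cKO), and chance marks about 1 in 20 such groups. Control replicate 2 held 13.8 CPM of Myl1, while the other controls held 3.55 to 5.59 CPM. Control replicate 1 had a log2 Myh7 to Myh6 ratio of -7.54, while the other controls lay between -5.03 and -4.05.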

How the results depend on the processing

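Myl2, Myl7 and Mylk3 passed in 20 of 20 alternatives fitted across all genes, Myh7b in 12 and Myl1 in 9. The count of 5 genes passing was 3 with no filter on low counts and 3 to 4 with a library left out. The count of 2 called was 1 with no filter and 1 after removal of trends with GC content and length, and 1 to 2 with a library left out. With the library set as a term, and in the Rps3a3-low libraries alone, the 2 called were Myl7 and Myh7b. Of all genes, 1030 were called, 620 in the Rps3a3-low libraries alone (50.5% higher, against 59.6%), and 909 to 1171 with a library left out. Myl4 ran from -0.040 (without cKO replicate 1) to 0.32 with a library left out, the only change of sign among the 10.

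The Myl7 to Myl2 ratio lost the threshold with labels permuted within the library sets (1.65, adjusted exact p = 0.05), in the Rps3a3-low libraries alone (1.53, adjusted p = 0.2) and over same-numbered pairs (1.87, adjusted p = 0.25), where exact tests could not go below 0.025 and 0.1 in the first 2, and the pairs gave the smallest p they allow. The Myl1 to Myl3 ratio did so at 1.53, 1.24 and 1.59. With a library left out they were 1.51 to 1.87 and 1.40 to 1.81. The smallest p of 4 against 4 libraries is 0.0286, which leaves 0.0571 for 2 tied ratios. The Myh7 to Myh6 ratio turned to 0.35 within the library sets, 0.33 in the Rps3a3-low libraries and 0.000504 over pairs, and ran from -0.75 to 0.20 with a library left out. The cause of these shifts was not tested.

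Same-numbered libraries showed little joint deviation from their group means (correlations 0.011 to 0.232, and 0 of 4 cKO libraries correlated best with their own number). Whether they share a litter or were handled together was not tested. With the replicate block, 2 genes were called and 5 passed, and 879 of all genes were called. Smyd1 did not pass with it (-0.24, adjusted p = 0.0775). Mybpc3 turned to -0.011 with the library set as a term, -0.13 in the Rps3a3-low libraries alone and -0.012 after removal of trends with GC content and length, and ran from -0.013 to 0.092 with a library left out. Mhrt turned to -0.026 with the library set as a term.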
